A study of Mus musculus with 6 samples.

Results

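The 10 genes described here encode the subunits, cofactors and one antagonist of Polycomb repressive complex 2 (PRC2): Ezh1, Ezh2, Eed, Suz12, Jarid2, Phf1, Mtf2, Phf19, Aebp2 and Kdm6b. They were chosen by name from the GENCODE vM1 annotation of the mm9 mouse genome, as 10 of its 22367 protein-coding genes. A peak was assigned to a gene where its summit lay in the gene or within 5 kb of either end, and peaks of different samples were joined into 1 region where they overlapped by at least 1 bp. This gave 58 regions, of 170444 regions in the whole genome.

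The study compared mouse primary mesangial cells, the contractile support cells of the kidney glomerulus, with and without the fibrogenic cytokine TGF-β1. DNA methylation was measured by MeDIP-seq, in which sheared DNA is pulled down with an antibody against methylated cytosine and read by sequencing. The control group and the TGF-β1 group each had 3 samples, and the dose of TGF-β1 was 10 ng/ml over 72 h. All were grown in medium with 25.5 mM glucose and 20% serum and used between passages 3 and 6, so the controls were high-glucose cultures too. The study calls the samples of a group biological replicates. It does not say whether they came from separate animals or cultures, so p-values measure only the spread between these samples. The cell type was taken from the labels, since peaks of methylated DNA give no expression of marker genes to check it by.

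PRC2 places the repressive histone mark H3K27me3. Its catalytic subunit is Ezh2 or the related Ezh1, which works only together with Eed, the subunit that binds the mark, and Suz12, the scaffold. Accessory proteins guide the complex to CpG-rich chromatin, either one of the Polycomb-like proteins Phf1, Mtf2 and Phf19 or the pair Jarid2 and Aebp2, and the demethylase Kdm6b removes the mark. In many tissues CpG-rich, unmethylated promoters are the sites where PRC2 binds, and the promoters of genes that all cells use are commonly CpG-rich and unmethylated themselves.

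After filtering, a control sample held 9407103 to 11494356 reads and a TGF-β1 sample 12634300 to 13291419. The control samples had 81473 to 100449 peaks and the TGF-β1 samples 100379 to 105520. Every TGF-β1 sample was deeper than every control sample, so in any number of peaks the treatment and the depth cannot be told apart. Control replicate 1 had the fewest peaks of all samples. The pileup counts the extended reads that cover the summit of a peak. It was not normalised for depth in the peak lists and had a lowest called value of 8 to 10. A peak shows that methylated fragments were enriched at a place. It does not give the share of cells or alleles that were methylated there.

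The 10 genes together held more peaks in the TGF-β1 samples than in the control samples. The control samples had 22, 29 and 25 peaks, and the TGF-β1 samples had 36, 33 and 33. The groups did not overlap, with means of 25.3 ± 3.51 (SD, n = 3) and 34 ± 1.73 (SD, n = 3), which is 34.2% more after TGF-β1. The windows of all protein-coding genes held 13.1% more peaks after TGF-β1, and the TGF-β1 samples held 23.9% more reads. Scaled to 10000000 reads (depth-scaled), the members had 21.3, 30.8 and 21.7 peaks in control and 28.2, 26.1 and 24.8 in TGF-β1 samples, and the groups overlapped. No test was made on this sum, because the members were chosen with results of these data known. Most of the difference came from Jarid2 and Aebp2. In the other 8 genes the samples had 14, 15 and 11 peaks in control and 16, 16 and 15 after TGF-β1, so the groups met at 15.

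**Figure D1:**
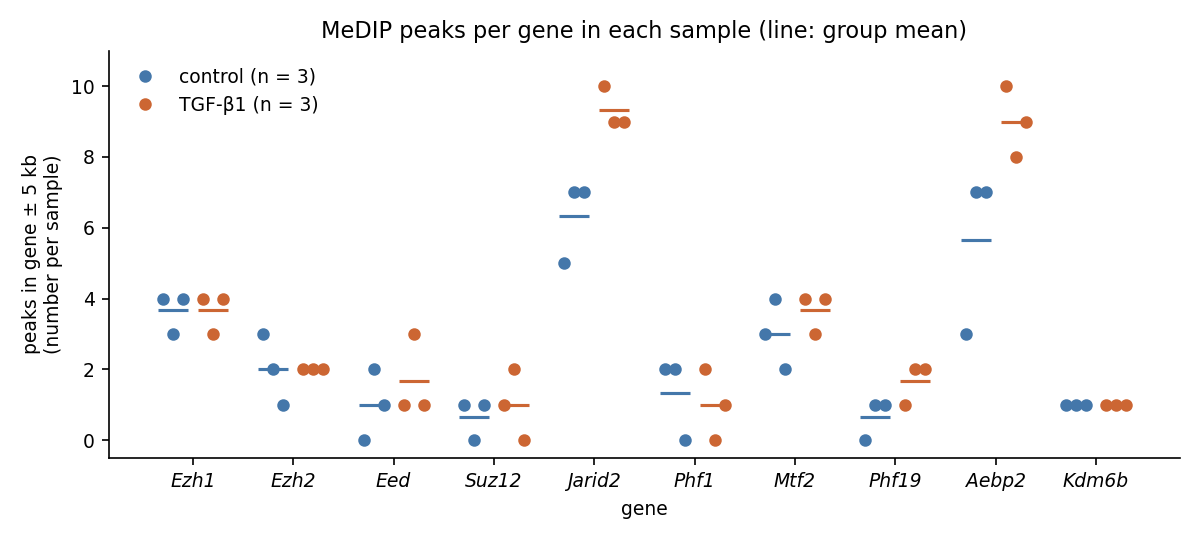
Number of MeDIP peaks with a summit in each gene or within 5 kb of it (vertical axis), for each of the 10 genes (horizontal axis). Each point is 1 sample, blue for control and orange for TGF-β1, and each line is the mean of 3 samples. Jarid2 has 5 to 7 peaks in control and 9 or 10 after TGF-β1, and Aebp2 has 3 to 7 and 8 to 10, while the groups of the other 8 genes overlap or are equal.

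Taken gene by gene, 2 of the 10 members, Jarid2 and Aebp2, had more peaks in every TGF-β1 sample than in any control sample, and 0 had fewer. Of the 17949 protein-coding genes with a peak in any sample, 3.91% had more in every TGF-β1 sample and 0.345% had fewer. Jarid2 and Aebp2 were also the members with the most peaks. With depth-scaled peak numbers, 0 members were higher in every TGF-β1 sample (1.84% of all genes were) and 2 were lower (14.7% of all genes were). Those 2 were Ezh1 and Kdm6b, whose peak numbers were equal in both groups and were divided by more reads in the TGF-β1 samples. The mean number of peaks was higher after TGF-β1 in 6 members, lower in 1 and equal in 3, against 57.0% of genes with a peak that were higher and 22.2% that were lower.

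The regions join these same peaks and so count the excess a second time, by place. Of the 58 regions, 30 (51.7%) were called in more TGF-β1 than control samples and 9 (15.5%) in more control samples, against 37.7% and 22.5% of all regions on the assembled chromosomes. Most of the 30 lay in Aebp2, with 11, and Jarid2, with 8, and every other member had 3 or fewer. Of the 58, 0 were called throughout one group and nowhere in the other, a pattern that 0.95% of all regions had for TGF-β1 and 0.234% for control. There were 15 member regions (25.9%) in TGF-β1 samples alone and 9 (15.5%) in control samples alone, each in 1 or 2 samples, against 20.2% and 14.1% of all regions. The regions of 1 or 2 samples, 29 in all, had pileups of 12 to 24 with a median of 16. Regions called in 5 or 6 samples, 16 in all, had a median pileup of 20. Only 7 of the 58 regions (12.1%) were called in all 6 samples, against 24.5% of all regions, and 16 (27.6%) were called in 1 sample, against 27.3%.

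**Figure D2:**
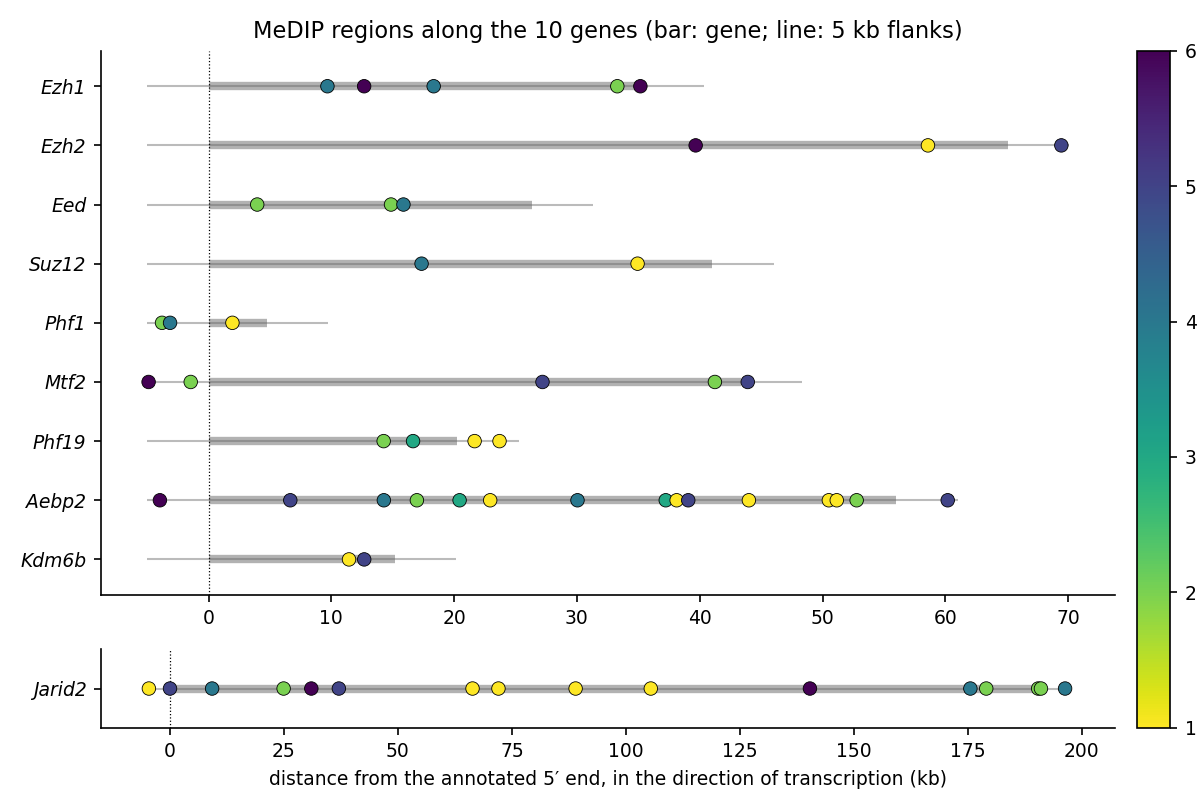
Position of the 58 regions along the 10 genes, as distance in kb from the annotated 5′ end in the direction of transcription (horizontal axis), with Jarid2 on a scale of its own. Bars are genes, thin lines are the 5 kb flanks, and the colour of a point is the number of samples, 1 to 6, in which the region was called. From 2 kb upstream to 500 bp downstream of the 5′ ends lie only 1 Jarid2 point at 0.02 kb and 1 Mtf2 point at -1.449 kb. The 7 points called in all samples lie in flanks, introns and exons.

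Promoters, taken as 2 kb upstream to 500 bp downstream of the annotated 5′ end, held 2 of the 58 regions. A peak was called there in at least 1 sample in 2 of the 10 members, Jarid2 and Mtf2, a share close to the 19.2% of all protein-coding genes. The remaining regions were 45 in gene bodies, 5 in upstream flanks and 6 in downstream flanks. Within the transcript that has the longest coding sequence, 28 regions lay in introns and 10 in exons, and 7, all in Aebp2, lay in an intron of a longer transcript of the gene.

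Only 1 of the promoter regions was shared between the groups. It was that of Jarid2, the DNA-binding cofactor that helps recruit PRC2 to its targets, at chr13:44824658-44825077 (mm9). Its pileup was 13 and 25 in control replicates 2 and 3, with no peak in control replicate 1, and 20, 16 and 29 in the TGF-β1 samples. The values of the groups overlapped, and only control replicate 1, the sample with the fewest peaks, lacked the region. The median of the summits lay 0.020 kb downstream of the annotated 5′ end. The region lies outside the transcript with the longest coding sequence. The most CpG-dense starts of Jarid2 lie 1300 and 1349 bp farther downstream, with 99 CpGs in the surrounding 500 bp on either side, and no sample had a summit within 500 bp of either. The part of the region upstream of the 5′ end had 4 CpGs in 185 bp. The plus strand of mm9 at chr13:44824658-44824842 is shown 5′ to 3′ with each CpG in capitals, because the region is the one promoter region of a member with peaks in both groups. It is the flank of the region and stops short of the median summit, and the whole region held 14 CpGs in 420 bp.

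Jarid2 promoter: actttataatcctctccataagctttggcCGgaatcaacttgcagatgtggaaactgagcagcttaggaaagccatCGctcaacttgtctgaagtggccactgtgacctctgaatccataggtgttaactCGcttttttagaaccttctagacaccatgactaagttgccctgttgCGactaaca

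The second promoter region was that of Mtf2, a Polycomb-like protein that binds CpG-rich DNA, at chr5:108493076-108493427. It had a pileup of 15 in TGF-β1 replicate 1 and 16 in TGF-β1 replicate 3, and no peak in the other 4 samples. The region held 0 CpGs, as did 0.938% of all regions, and it is a run of simple repeats. MeDIP enriches methylated CpGs, and this region holds no CpG whose methylation a peak could report. Its plus strand around the summit, chr5:108493144-108493343, is printed so that the repeat can be seen, and it has no capitals because it has no CpG.

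Mtf2 promoter: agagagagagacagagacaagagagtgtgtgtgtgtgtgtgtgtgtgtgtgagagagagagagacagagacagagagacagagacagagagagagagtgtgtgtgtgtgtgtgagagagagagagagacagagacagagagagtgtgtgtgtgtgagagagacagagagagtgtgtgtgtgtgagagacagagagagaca

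The other 8 members had no promoter peak in any sample. As an example, the 200 bp just upstream of the annotated 5′ end of Ezh2, chr6:47545341-47545540 on the minus strand, held 18 CpGs and no summit in any sample. It was chosen after the values were seen, to show a CpG-dense promoter without a peak.

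Ezh2 5′ end: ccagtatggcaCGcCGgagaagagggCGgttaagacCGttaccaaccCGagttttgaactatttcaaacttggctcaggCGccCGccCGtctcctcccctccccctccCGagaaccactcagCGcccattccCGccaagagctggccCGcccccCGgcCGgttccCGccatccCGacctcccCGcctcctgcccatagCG

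CpG content was examined because MeDIP recovers a methylated fragment more readily the more CpGs it holds. The ratio of observed to expected CpGs in the 500 bp on either side of the annotated 5′ end was above 0.6 in 7 of the 10 members, against 45.6% of all protein-coding genes. It was highest in Eed (0.936) and Ezh2 (0.921). It was lowest in Kdm6b (0.172), followed by Aebp2 (0.311), whose annotated 5′ end lies 1246 bp upstream of its most CpG-dense transcript start, where 132 CpGs were counted. Phf1 had a ratio of 0.550. At the most CpG-dense start of every one of the 10 genes, no summit of any sample lay within 500 bp. For Kdm6b that start had only 12 CpGs. This did not hold for every CpG-rich start. A Jarid2 start 321 bp downstream of the annotated 5′ end, with 85 CpGs, had 5 peaks over all samples. The absence of summits at the most CpG-dense start was not counted over all protein-coding genes. Whether it is particular to the members was not tested.

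To look at CpG content and position together, the gene windows were cut into tiles of 300 bp. Within 1 kb of the 5′ end, 0 of the 35 member tiles with 10 or more CpGs held a summit in any sample, and the share over all protein-coding genes was 2.67%. Farther than 1 kb from the 5′ end, 9 of 86 such tiles (10.5%) held one, against 26.9% over all genes. At 6 to 9 CpGs per tile, the shares away from the 5′ end were 20.1% of 174 member tiles and 16.7% over all genes. At 3 to 5 CpGs they were 2.87% and 2.82%. The widest gap between the members and all genes was therefore in the CpG-densest tiles. It was not tested, and tiles of 1 gene are not independent. The annotated 5′ ends of Jarid2 and Aebp2 lie over 1 kb from their CpG-densest starts, so the tiles were also split by the nearest start of any protein-coding transcript, a choice made after seeing the data. Within 1 kb of such a start, 0 of 46 member tiles with 10 or more CpGs held a summit, against 3.58% over all genes. Farther away it was 9 of 75 (12%), against 28.5%.

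**Figure D3:**
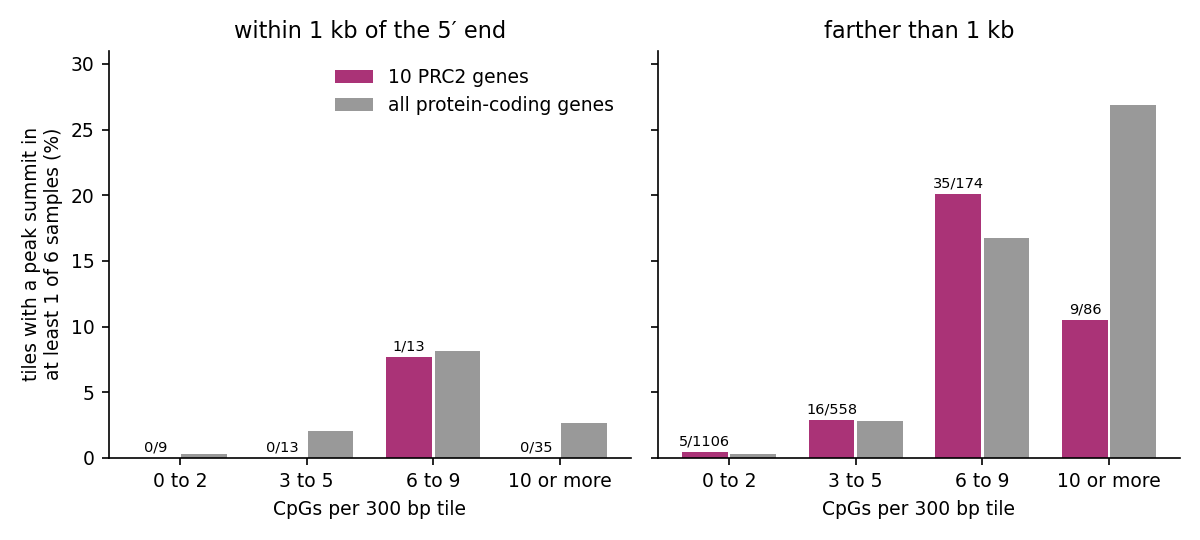
Share of 300 bp tiles with a peak summit in at least 1 of the 6 samples (vertical axis, percent) by the number of CpGs in the tile (horizontal axis), within 1 kb of the annotated 5′ end (left) and farther away (right). Purple bars are the 10 PRC2 genes, with tiles holding a summit over all tiles above each bar, and grey bars are all protein-coding genes. The purple bar for 10 or more CpGs is at 0 of 35 near the 5′ end and at 9 of 86 farther away.

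The regions themselves resembled those of the genome in base composition. Member regions had a median length of 372 bp and a median of 2.15 CpGs per 100 bp, against 380 bp and 2.37 in all regions. Per length, the members had a median of 0.392 peaks per 10 kb of window, against 0.517 over all protein-coding genes, and 6 of the 10 lay below that genome median. Aebp2 was the densest with 1.11 peaks per 10 kb, above 85.6% of genes, and Suz12 the sparsest with 0.163.

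Ezh1, the catalytic subunit that is typical of non-dividing cells, spans chr11:101052429-101087777 on the minus strand and had 4, 3 and 4 peaks in control and 4, 3 and 4 in TGF-β1 samples. The counts were identical. It was the only member with 2 exonic regions called in all 6 samples. The one in exon 21, in the 3′ untranslated region (chr11:101052411-101052794), had pileups of 16, 17 and 17 in control and 20, 22 and 30 after TGF-β1. These values did not overlap, but once depth-scaled the TGF-β1 values reached into the control range. The log2 difference after centring each sample on its median was 0.28 (SE 0.22, 95% interval -0.16 to 0.72, limma unadjusted p = 0.1996). The coding region in exon 6 of 21 (chr11:101074862-101075326) had pileups of 17, 15 and 19 in control and 22, 15 and 16 after TGF-β1, which overlapped.

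An intronic region of Ezh1 at chr11:101077887-101078309 was called in 1 control and 3 TGF-β1 samples, with a pileup of 17 in control replicate 1 and 15, 17 and 20 after TGF-β1. Another, at chr11:101054352-101054684 in intron 20, was called in control replicates 1 and 3 alone, at 14 and 16. The same gene therefore held 1 region leaning to each group.

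Ezh2, the catalytic subunit of dividing cells, spans chr6:47480273-47545340 on the minus strand. It had 3, 2 and 1 peaks in control and 2 in each TGF-β1 sample, with equal means. A region in an intron was called in all samples at 13, 12 and 21 in control and 21, 16 and 20 after TGF-β1. The groups overlapped, and the log2 difference was 0.12 (SE 0.22, 95% interval -0.32 to 0.56). A downstream region of Ezh2, chr6:47475689-47476060, was called in 5 samples at 15 to 24 and overlaps the neighbouring gene Cul1, so it cannot be given to Ezh2 alone.

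Eed, which reads H3K27me3, had 0, 2 and 1 peaks in control and 1, 3 and 1 after TGF-β1. Suz12, the scaffold, had 1, 0 and 1 peaks in control and 1, 2 and 0 after TGF-β1. Neither gene had a region called in all 6 samples, and the groups overlapped in both (exact two-sided permutation test, p = 0.7 and p = 1). The most widely shared regions, in intron 7 of Eed at chr7:97113423-97113842 and in intron 5 of Suz12 at chr11:79823711-79824083, were each called in 2 control and 2 TGF-β1 samples. Their pileups were 16 to 25 and 17 to 19.

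The Polycomb-like genes differed in how much of their signal was their own. Phf1 had 2, 2 and 0 peaks in control and 2, 0 and 1 after TGF-β1, and both of its upstream regions overlap the neighbouring gene Kifc5b. Its only region in the gene was a coding-exon peak in control replicate 2, with a pileup of 12. Phf19 had 0, 1 and 1 peaks in control and 1, 2 and 2 after TGF-β1, the closest of the remaining genes to a separation of the groups (exact two-sided permutation test, p = 0.3). Those peaks fell in 4 different regions, none called in more than 3 samples. The regions chr2:34747693-34747990 and chr2:34745641-34745939 lay in the downstream flank, each in 1 TGF-β1 sample alone. The second of them overlaps D730039F16Rik. Without the flanks the difference in mean peaks of Phf19 fell from 1 to 0.333.

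Mtf2 had 3, 4 and 2 peaks in control and 4, 3 and 4 after TGF-β1. Its upstream region at chr5:108489600-108490091, whose median summit lay 4.88 kb from the 5′ end and so just inside the 5 kb limit, was called in all samples. The pileups were 25, 19 and 28 in control and 19, 28 and 30 after TGF-β1, with a log2 difference of -0.13 (SE 0.22). Here a raw mean that was higher after TGF-β1 became slightly negative once each sample was centred. A coding-exon region of Mtf2, chr5:108535732-108536096, was called in control replicates 1 and 2 alone, at 12 and 14, and overlaps Tmed5.

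Jarid2, on chr13:44824843-45017012 and the longest member at 192 kb, had 5, 7 and 7 peaks in control and 10, 9 and 9 after TGF-β1. The groups did not overlap, and the difference was 3 peaks (p = 0.1 by exact permutation, two-sided, which is the least that 3 samples against 3 can give). Once depth-scaled, the groups overlapped (exact permutation p = 0.3). The excess did not come from one place. Of its 16 regions, 8 were called in more TGF-β1 samples, 2 in more control samples and 6 in equal numbers, and the 5 regions of TGF-β1 samples alone were each called in 1 or 2 samples. The region with the clearest lean, in intron 7 at chr13:45000181-45000576, had a pileup of 15 in control replicate 2 and 18, 17 and 31 after TGF-β1.

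The region in intron 3 of Jarid2, chr13:44964938-44965479, had the highest pileup of all members. It was 31, 64 and 87 in control and 67, 78 and 52 after TGF-β1, and its mean of 63.2 was above 98.5% of all regions called in 6 samples. The control samples alone spanned the values of all TGF-β1 samples, and the log2 difference was -0.0041 (SE 0.21, 95% interval -0.44 to 0.43). The region held 46 CpGs, or 8.49 per 100 bp, the highest density of the members and above nearly every region of the genome. A search of the assembly found 2 other whole copies, the closest with 95.6% identity. The plus strand around its summit, chr13:44965111-44965310, was chosen after the values were seen.

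Jarid2 intron 3: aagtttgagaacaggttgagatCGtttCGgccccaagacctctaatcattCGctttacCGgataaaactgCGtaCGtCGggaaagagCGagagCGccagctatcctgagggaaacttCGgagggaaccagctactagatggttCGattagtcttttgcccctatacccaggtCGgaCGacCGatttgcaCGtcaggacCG

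From general knowledge, and not checked against a reference sequence here, these letters read as the reverse strand of a conserved part of the large ribosomal RNA gene, which mammalian genomes carry in many tandem copies. How many of the reads placed here came from Jarid2 itself was not tested. The second Jarid2 region called in all samples, in intron 1 at chr13:44855660-44856052, had no other whole copy. Its pileups were ordinary, at 22, 15 and 24 in control and 18, 23 and 20 after TGF-β1. Its log2 difference was -0.20 (SE 0.22).

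**Figure D4:**
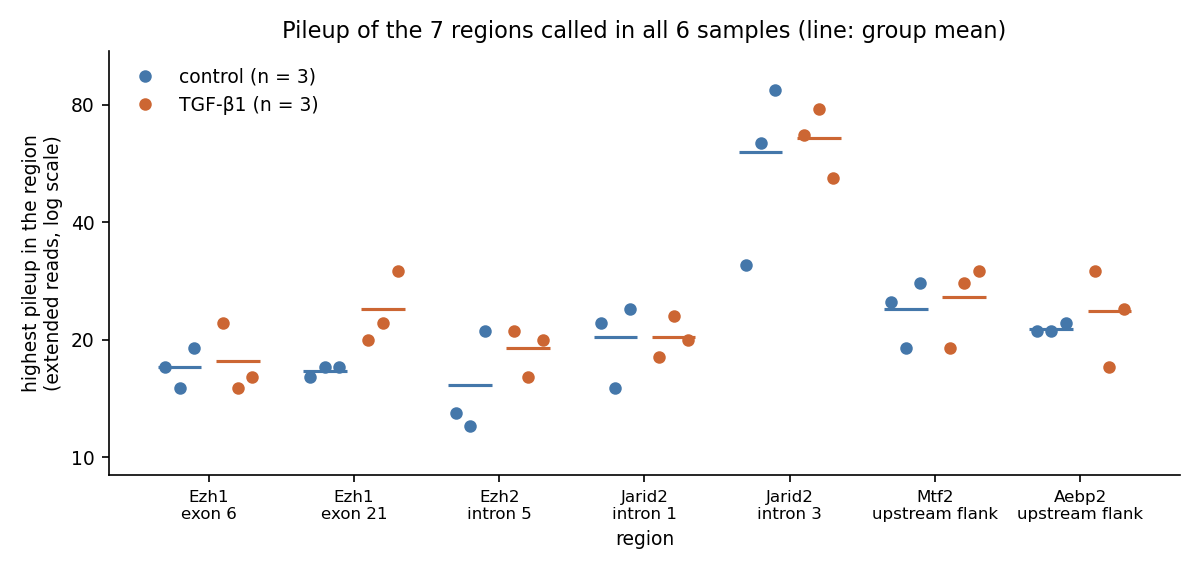
Highest pileup in extended reads (vertical axis, log scale) of the 7 member regions called in all 6 samples (horizontal axis). Each point is 1 sample, blue for control and orange for TGF-β1, and each line is the mean of 3 samples, not normalised for depth. Most points lie between 12 and 30, the intron 3 region of Jarid2 lies between 31 and 87, and the groups overlap in every region but exon 21 of Ezh1.

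Aebp2, a zinc-finger cofactor that acts beside Jarid2, had 3, 7 and 7 peaks in control and 10, 8 and 9 after TGF-β1. The groups did not overlap (difference 3.33 peaks, exact two-sided permutation test, p = 0.1), and control replicate 1 had fewer than any other sample. Without it the difference was 2 peaks. Without the 5 kb flanks the groups of Aebp2 overlapped, and the depth-scaled numbers overlapped as well (exact permutation p = 0.4). Of its 15 regions, 11 were called in more TGF-β1 samples, 2 in more control samples and 2 in equal numbers. In intron 2 the region chr6:140585031-140585447 had a pileup of 29 in control replicate 3 alone and 25, 23 and 20 after TGF-β1. In intron 3 the opposite was seen, with chr6:140587794-140588112 called in control replicates 1 and 2 at 23 and 17 and in no TGF-β1 sample, a region with 13 other copies in the assembly. The upstream region at chr6:140566633-140567487 was called in all samples, at 21, 21 and 22 in control and 30, 17 and 24 after TGF-β1, and 5 other copies of it lie elsewhere in the assembly. In all, 5 of the 58 member regions had another copy, and the other 53 had none at 90% identity over 80% of their length. Some of the 53 still matched many places in part, with 78423 matches for the Suz12 intron 5 region and 34391 for the shared Ezh2 intron region. Others, such as the Ezh1 region in exon 21, had 0.

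Kdm6b, the H3K27me3 demethylase, had 1 peak in each of the 6 samples, but not always the same one. A coding region in exon 19, chr11:69214229-69214752, was called in 5 samples, at 20 and 22 in control replicates 2 and 3 and 29, 22 and 23 after TGF-β1. In control replicate 1 the single peak lay in exon 14 instead, with a pileup of 14, where the region overlaps the transcript 1700064E03Rik. The equal numbers thus joined different regions.

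None of the regions that all 6 samples shared passed a test between the groups. By limma on log2 pileup, 0 of the 7 member regions passed an adjusted p of 0.01 and an absolute log2 fold change of 2. Genome-wide, 0% of the 41744 regions with a peak in every sample did so. These cutoffs are the study's, but the test and its input are not. The study applied DESeq to read counts in merged peaks and did report differentially methylated genes. The 0% therefore does not check those calls. With limma at an adjusted p of 0.05 the result was 0 of 7 and 0% as well. At an unadjusted p of 0.05 it was 0 of 7 and 4.18%. The median log2 difference of the 7 was -0.11, against -0.0047 over all regions. Of the 7, 2 were higher and 5 lower after TGF-β1, against 20521 and 21223 of all regions tested. Regions called in fewer samples, among them those of 1 group alone, were not part of this test. The intervals of the single regions reached at most 0.72 upward and -0.65 downward, so differences of that size are not excluded, and the adjustment over all regions asks for more than a single interval does. The 7 regions were modest in height, with a median mean pileup of 20.3 against 26.5 for all regions called in 6 samples.

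Other Polycomb genes were counted in the same way. They were 26 genes of the second Polycomb complex, the histone-binding subunits of PRC2 (Rbbp4 and Rbbp7), the H2A deubiquitinase and Kdm6a, the other H3K27me3 demethylase. Together they held 76, 90 and 108 peaks in control and 97, 107 and 110 after TGF-β1, and the groups overlapped. The mean was higher after TGF-β1 in 18 genes, lower in 3 and equal in 5. Of all genes with a peak, 57.0% were higher and 22.2% lower. In 0 of the 26 were the groups apart, against 3.91% of all genes with a peak upward and 0.345% downward. Once depth-scaled, Pcgf1 alone of the 26 was lower in every TGF-β1 sample, as were 14.7% of all genes with a peak. Pcgf1 had 2, 2 and 1 peaks in control and 1 in each TGF-β1 sample. Of the 40 regions of the 26 genes called in all samples, limma called 0 at an adjusted p of 0.05. At an unadjusted p of 0.05 it called 1, against 4.18% of all regions tested. That region was in Pcgf5, was named after its value was seen, and had a log2 difference of 0.42 (SE 0.20).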

How the data were processed

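MeDIP-seq peak lists of 3 control and 3 TGF-β1 samples were analysed. The authors mapped reads with BWA (version not given in the sources used here) to mm9 and called peaks in each sample with MACS2 2.1.0.20150731 at a q cutoff of 0.01, per the file headers with no input. In the deposited lists the pileup is a signal that the authors did not normalise for depth, the deposited fold enrichment is a ratio to local background, and the deposited q-value is on a −log10 scale. Summits were assigned to GENCODE vM1 genes on NCBIM37, the same assembly as mm9. The precision of counts of peaks is set by 9407103 to 13291419 reads a sample.

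Peak numbers were compared by exact permutation over 20 assignments, and log2 pileup by limma 3.58.1 in R 4.3.3 with a trend and Benjamini-Hochberg adjustment over all regions, since the lists leave out reads of uncalled regions. The limma test was tried on simulated data, with changes put into 200 of the 41744 regions called in all 6 samples. At an adjusted p of 0.05 it called 0 of the 200 at a log2 change of 1. At a log2 change of 2 it called 182, with 8 false calls. A count of 0 at that threshold therefore does not by itself exclude regions changed by a log2 of 1. The simulation shuffled the spreads of the real regions among regions, so counts in the real data may differ. Joining was checked with bedtools 2.31.1 (170444 regions by both) and copies were sought with blastn 2.17.0 at 90% identity over 80% of a region. Other calculations used Python 3.11.15. Replicate numbers come from the labels. The labels do not say whether same-numbered samples share a culture, so they were not treated as pairs. Same-numbered samples deviated together with r of -0.13 to 0.04, against -0.12 to 0.17 for samples of different numbers. These values do not settle the pairing.

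The members and lists were chosen with earlier results of these data known. Regions were named by rule: every promoter region and, in each member, the highest region called in all 6 samples. The rule also took member regions called in every sample of 1 group and none of the other, of which there were 0. It took member regions with an unadjusted limma p below 0.05 as well, and there were 0 of these too. The other regions described, and the sequences so marked, were picked after their values were seen. The sequence of 1 member region is not reported here. Alternatives were a −log10 q or fold enrichment of at least 5, other windows and promoter limits, division by reads, joining up to 200 bp, other limma settings, the replicate block and leaving out each sample. Those for the other Polycomb genes and for peak density and CpG tiles were added after seeing the data.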

Additional observations from a re-analysis of the deposited data

How the results depend on the processing

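The excess of peaks in the 10 genes, 34.2% after TGF-β1, fell to 7.16% per 10000000 reads and ranged from 25.9% to 44.7% with each sample left out. It moved by less than the spread between samples under the other settings. The number of genes with more peaks in every TGF-β1 sample was 2, and it was 1 (Jarid2) at a −log10 q of at least 5, 1 at a fold enrichment of at least 5, 1 without flanks and 0 once scaled to reads, where 2 genes were lower. With a sample left out it ranged from 2 to 3, the third being Phf19 without TGF-β1 replicate 1. The difference in promoter peaks, a mean of 1 per sample, became 2 when the start of any protein-coding transcript was used, which added Aebp2, and 0.333 within 1 kb of the 5′ end, which removed Mtf2. With a sample left out it ranged from 0.667 to 1.33. Regions called in every sample of 1 group and none of the other numbered 0, and 0 to 3 with a sample left out (3 without control replicate 3 or TGF-β1 replicate 2), which leaves fewer samples to pass. The replicate block cannot change the 34.2%, since the mean of the paired differences equals the difference of the means. With this block 0 member regions were called, and 3 of the 10 genes (Jarid2, Aebp2 and Phf19) had more peaks in every pair. Among the other Polycomb genes 1 gene, Pcgf3, was higher in every pair. Scaled to reads, 1 of them, Pcgf1, was lower. The log2 difference of the Jarid2 intron 3 region turned to 0.0224 with fold enrichment in place of pileup and ranged from -0.39 to 0.24 with a sample left out, that of the Mtf2 upstream region from -0.26 to 0.0605 and that of the Aebp2 upstream region from -0.31 to 0.0748. The number of member regions that limma called at an adjusted p of 0.05 stayed at 0 under every setting run, also where 29 regions called in at least 3 samples were tested. The cause of these shifts was not tested. Depth limits what could be seen: a peak below the calling threshold of a shallower sample counts as absent.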
